A study of Homo sapiens with 10 samples.

Results

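Integrins, laminins and the matrix glycoproteins FN1, TNC, LUM, DCN, SPARC, THBS1 and THBS2 were followed in 786-O cells, an established human clear-cell renal carcinoma line. Members were the protein-coding genes whose symbols name an integrin alpha or beta chain or a laminin chain, together with those 7 glycoproteins. RefSeq lists 45 such genes, and 42 of the 22432 genes on the arrays were members: 17 of 18 integrin alpha chains, all 8 beta chains, 10 of 12 laminin chains and all 7 glycoproteins. The remaining genes are not analysed here. Each member was read by 1 probe set.

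All cells had been infected with lentivirus carrying a short hairpin RNA and selected with puromycin at 2 ug/ml, controls included. The ZHX2 table held scrambled hairpin, ZHX2 hairpin 44 and ZHX2 hairpin 45, and the p65 table held control shRNA and p65 shRNA, with 2 arrays in each of the 5 groups. ZHX2 is a zinc-finger and homeobox transcription factor, and RELA encodes p65, a subunit of NF-kB. The labels do not say whether the 2 arrays of a group came from separate cultures, so p-values measure the spread between arrays, which may be technical. The cells are a single line, and the knockdowns are partial rather than deletions.

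Integrins are receptors made of an alpha and a beta chain that bind matrix outside the cell and the actin skeleton, through adaptors, inside it. Several integrins containing ITGAV recognise the RGD sequence of fibronectin and of other ligands, and those pairing ITGAV with ITGB6 or ITGB8 can activate latent TGF-beta. Laminins are trimers of an alpha, a beta and a gamma chain that build the basement membrane under epithelia such as the renal tubule, and are bound there by integrins containing ITGA3 or ITGA6.

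The targeted genes followed their labels. ZHX2 itself changed by -1.14 on the log2 scale in hairpin 44 cells (limma adjusted p = 0.00528) and by -1.53 in hairpin 45 cells (limma adjusted p = 0.000926). RELA changed by -2.50 with p65 shRNA, with a limma adjusted p of 0.0733 and of 0.00132 when moderation followed the intensity trend. RELA was itself higher on the ZHX2 knockdown arrays, by 0.44 (limma adjusted p = 0.0112), which no longer passed once scrambled replicate 2 was omitted (adjusted p = 0.0554). The renal carcinoma markers PAX8 and VIM had signals of 11.74 to 12.35 and of 12.12 to 12.33 on the ZHX2 arrays, PAX8 with a log2 change of -0.38 over both hairpins (limma adjusted p = 0.0117), while LRP2, a marker of mature proximal tubule, was below the 40th percentile of all probe sets in both tables. The leukocyte markers had mean signals from 3.76 to 7.50 and the endothelial markers from 5.06 to 7.26 on the ZHX2 arrays, whose medians over all probe sets were 6.15 to 6.22. Of these lists 0 of 9 and 0 of 8 genes passed limma in the mean of both hairpins, 1 and 0 at an unadjusted p under 0.05, and 0 and 0 with the intensity trend. Of all genes 18.3% passed limma in that comparison (6.41% lower), and 26.2% with the trend, so few calls would be looked for in lists this short. Under hairpin 45 the leukocyte marker TYROBP was lower, at -0.32 (limma adjusted p = 0.0362). Of 5 muscle markers 1 was lower over both hairpins, ACTC1 at -0.29 (limma adjusted p = 0.0297), with a signal below the 40th percentile and a call lost in 6 of 6 omissions of an array. The files used give no detection measure, so no gene was called absent. Of the members, 8 in the ZHX2 table and 10 in the p65 table had mean signals below the 40th percentile of all probe sets.

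Knockdown of ZHX2 changed both the receptors and their ligands, in both directions. With both hairpins averaged (4 arrays against 2), ITGB6 fell 3.91-fold, LAMA5 1.96-fold, LUM 1.93-fold, ITGB3 1.61-fold, ITGAV 1.47-fold and FN1 1.41-fold. In these bulk samples, fewer cells of a type and less RNA per cell cannot be told apart. LAMB3 rose 1.97-fold, THBS1 1.95-fold, ITGA2 1.51-fold, ITGB8 1.42-fold and ITGA6 1.37-fold. In all, 5 of the 42 members were higher and 8 lower at a limma adjusted p under 0.05 over all genes. Of all genes tested, 18.3% passed, 11.9% higher and 6.41% lower. The median log2 change was -0.07 over the members and -0.00425 over all genes. The arrays of the knockdown and scrambled groups did not overlap for 18 of the 42 members, against 38.3% of all genes. The 29 members that did not pass differed by between -0.37 and 0.13. With the intensity trend 5 members were higher and 12 lower, when 26.2% of all genes passed, 17.3% higher and 8.89% lower. After a further quantile normalization 5 members were higher and 11 lower, and after median centring 5 and 6. Over all genes 3969 passed after quantile normalization, 53.2% of them higher, and 4192 after median centring, 73.0% of them higher.

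**Figure D1:**
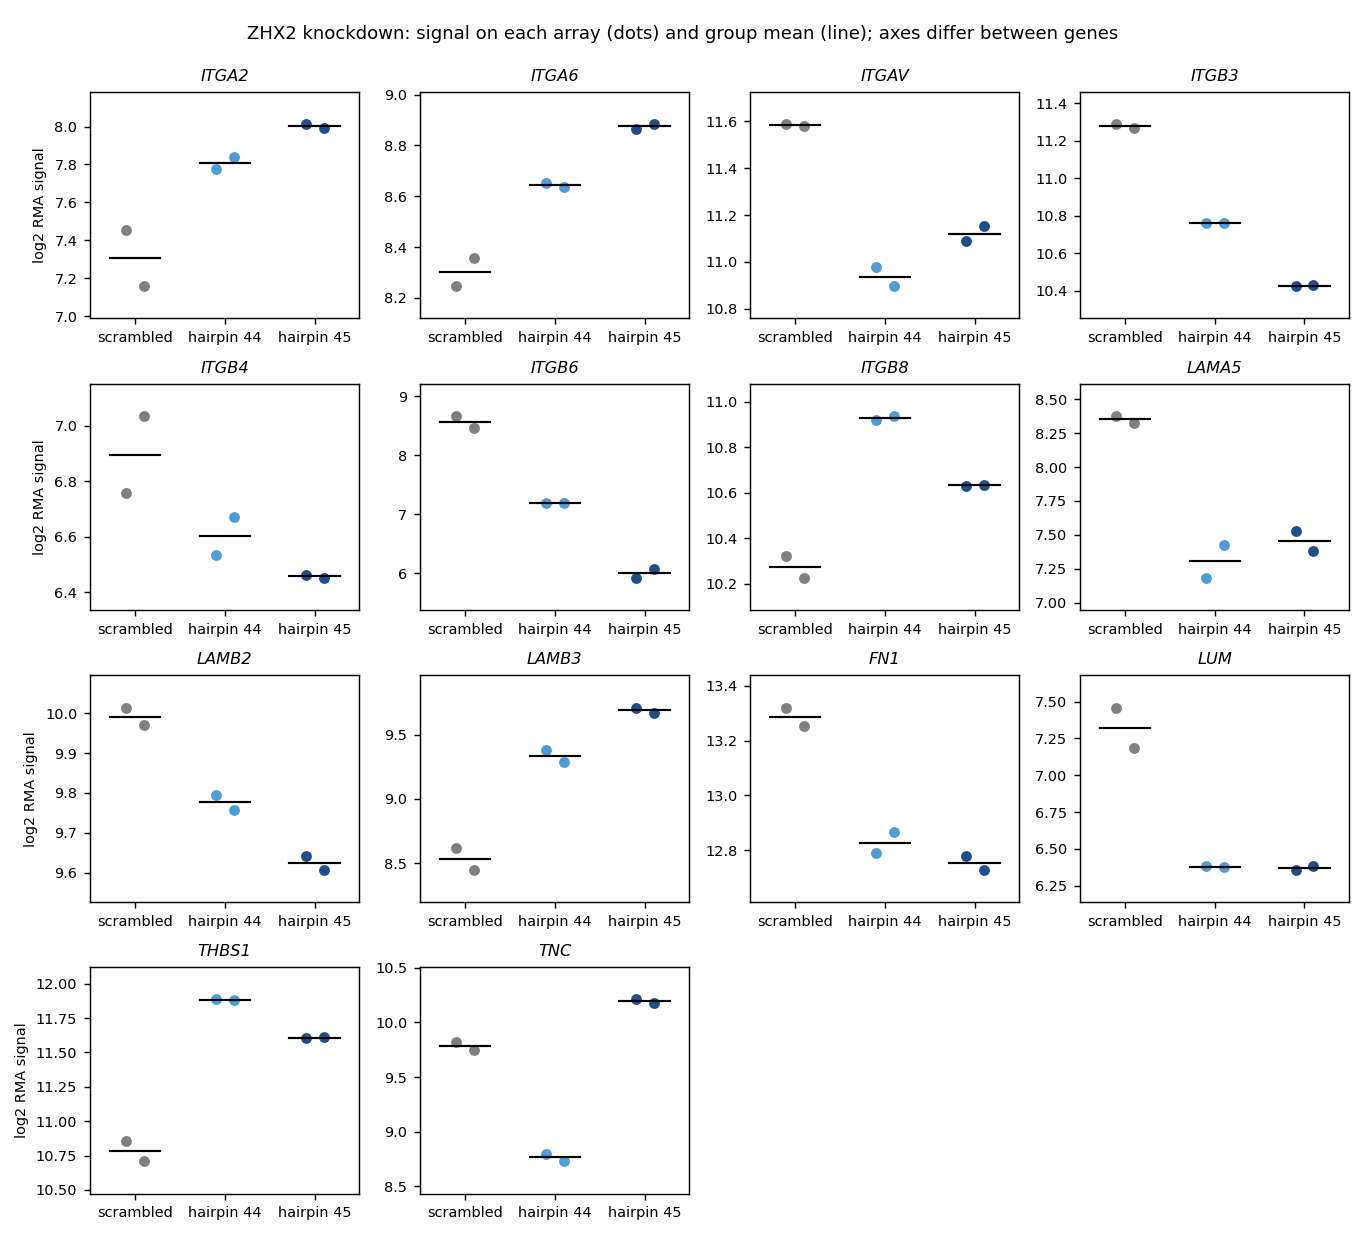
The log2 RMA signal (vertical axis, which differs between genes) of the 14 members called with either hairpin or with their mean, for scrambled, hairpin 44 and hairpin 45 cells; each dot is an array and each line a group mean of 2 arrays. ITGB6 steps down from a mean of 8.56 to 7.19 and then to arrays at 5.92 and 6.08, and TNC lies below scrambled under hairpin 44 and above it under hairpin 45.

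Among the integrin beta chains, ITGB6, which is typical of epithelia and pairs with ITGAV alone, fell the most. Scrambled arrays read 8.67 and 8.46, hairpin 44 arrays 7.19 and 7.20, and hairpin 45 arrays 5.92 and 6.08. The 3 groups did not overlap, and hairpin 45 lay lowest. The scrambled mean was 8.56 ± 0.146 (SD, n = 2), and the SD between the arrays of a hairpin was 0.00522 for hairpin 44 and 0.108 for hairpin 45. The log2 change was -1.97 for the mean of both hairpins (SE 0.0880, limma adjusted p = 0.000706), -1.37 under hairpin 44 (SE 0.102) and -2.56 under hairpin 45 (SE 0.102).

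ITGB3, the partner of ITGAV in the vitronectin receptor, also fell. It stood at 11.29 and 11.27 in scrambled cells, at 10.76 on both hairpin 44 arrays and at 10.43 on both hairpin 45 arrays. Replicates lay much closer together than the groups did, and averaged over both hairpins ITGB3 changed by -0.68 (SE 0.0600, limma adjusted p = 0.00261). ITGAV, the alpha chain that both of these beta chains use, was 11.59 and 11.58 under the scrambled hairpin, 10.98 and 10.90 under hairpin 44 and 11.09 and 11.15 under hairpin 45. Every knockdown array was below every scrambled array, with a change of -0.56 (SE 0.0652, limma adjusted p = 0.00513).

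ITGB8, another partner of ITGAV, went the other way. Its signal was 10.32 and 10.23 in scrambled cells, 10.92 and 10.94 under hairpin 44 and 10.63 on both hairpin 45 arrays. Hairpin 44 lay highest and the groups did not overlap, for a change of 0.51 over both hairpins (SE 0.0649, limma adjusted p = 0.00639). ITGB5, which also pairs with ITGAV, had a log2 difference of -0.22 (limma adjusted p = 0.102), and with the intensity trend it passed (adjusted p = 0.00421). ITGB1, the beta chain shared by most integrins, had a difference of -0.13 (limma adjusted p = 0.211, and 0.0442 with the intensity trend). ITGB4, the laminin receptor chain of hemidesmosomes, passed under hairpin 45 at -0.44 (SE 0.114, limma adjusted p = 0.0452), and its difference was -0.29 under hairpin 44 (adjusted p = 0.186). That call ended after median centring, after quantile normalization, in a fit of the hairpin 45 and scrambled arrays alone, and without any array but scrambled replicate 1 (adjusted p up to 0.167).

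Of the 17 alpha chains, 2 rose and 1, ITGAV, fell with both hairpins averaged. These are 17.6% of the alpha chains, close to the 18.3% of all genes that passed. ITGA2, a collagen receptor chain, was 7.45 and 7.16 under the scrambled hairpin, 7.77 and 7.84 under hairpin 44 and 8.01 and 7.99 under hairpin 45. The scrambled arrays were lowest and also the most spread. The change was 0.60 (SE 0.0969, limma adjusted p = 0.0120). ITGA6, a laminin receptor chain that pairs with ITGB1 or ITGB4, was 8.25 and 8.36 in scrambled cells, 8.65 and 8.64 under hairpin 44 and 8.87 and 8.88 under hairpin 45. It too was higher on all 4 knockdown arrays, by 0.46 (SE 0.0661, limma adjusted p = 0.00882).

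ITGA2 and ITGA6 passed under hairpin 45, at 0.69 and 0.57, and not under hairpin 44, at 0.50 (limma adjusted p = 0.0535) and 0.34 (adjusted p = 0.0523). The difference between the hairpins did not pass for either gene (limma adjusted p = 0.476 and 0.259). The other 14 alpha chains differed by between -0.10 and 0.13 and did not pass. They include ITGA3, whose signal was between 11.87 and 12.13 on all 6 arrays and which passed under hairpin 45 with the intensity trend alone (-0.19, limma adjusted p = 0.142, and 0.00503 with the trend), and ITGA5, the classical fibronectin receptor chain, between 9.55 and 9.68. Of the chains typical of leukocytes, ITGAD, ITGAE, ITGAL, ITGAM, ITGAX, ITGB2 and ITGB7 did not pass in any of the ZHX2 comparisons.

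Laminin chains moved apart from each other. LAMA5, the alpha chain of the laminins of most adult epithelial basement membranes, was 8.38 and 8.32 under the scrambled hairpin, 7.18 and 7.43 under hairpin 44 and 7.53 and 7.38 under hairpin 45. All 4 knockdown arrays lay below both scrambled arrays, and the change was -0.97 (SE 0.0946, limma adjusted p = 0.00328). LAMB2, a beta chain prominent in the glomerular basement membrane, was 10.01 and 9.97 in scrambled cells, 9.80 and 9.76 under hairpin 44 and 9.64 and 9.61 under hairpin 45. The groups did not overlap, and the change of -0.29 was small (SE 0.0621, limma adjusted p = 0.0267). Omitting any single array ended the call (adjusted p between 0.0729 and 0.0913), and so did median centring.

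LAMB3, which forms the epithelial laminin that anchors hemidesmosomes, rose instead. It was 8.62 and 8.45 under the scrambled hairpin, 9.38 and 9.29 under hairpin 44 and 9.71 and 9.67 under hairpin 45. Hairpin 45 lay highest, and the change over both was 0.98 (SE 0.0777, limma adjusted p = 0.00214). The other 7 laminin chains differed by between -0.17 and 0.10 and did not pass. LAMC1, the common gamma chain, was among them at -0.17 (limma adjusted p = 0.112), and it passed with the intensity trend (adjusted p = 0.00267). LAMB1 was between 10.86 and 11.02 on all 6 arrays.

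RefSeq promoter windows on GRCh38.p14, from 250 bases before to 50 after a transcript start, were at hand for 29 of the 42 members and searched for 2 motifs on both strands. The NF-kB consensus was found in the windows of 4 members, ITGA5, ITGA10, ITGA11 and LAMB3, and in 7.09% of all genes with a window. The AP-1 motif TGANTCA was found in those of ITGA5 and LAMB3, and in 9.37% of all genes. LAMB3 was the only 1 of the 11 called members with a window to hold either, and ITGA5 did not pass in any comparison. Matches upstream of a start are printed for LAMB3, on chromosome 1, and for ITGA5, on chromosome 12, because these genes hold both motifs and LAMB3 rose while ITGA5 did not pass. LAMB3 has further NF-kB matches close to its starts. The AP-1 match of ITGA5 runs across its start, so it is not printed. Both genes lie on the minus strand, and capitals mark the match.
LAMB3, NF-kB match at chr1:209652465-209652494: cacccagccaGGGAGTCTCCagaggtgagg
LAMB3, AP-1 match at chr1:209651422-209651451, before another start of the gene: tcagccactcTGACTCAttcactttgggcg
ITGA5, NF-kB match at chr12:54419329-54419358: cagggacccaGGAATGCCCCcccgccagcc

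Of the 7 matrix glycoproteins, 1 rose and 3 passed as lower with both hairpins averaged. That is 57.1% of the 7, beside 18.3% of all genes (11.9% higher and 6.41% lower). FN1, which encodes fibronectin, was 13.32 and 13.25 under the scrambled hairpin, 12.79 and 12.87 under hairpin 44 and 12.78 and 12.73 under hairpin 45. Its knockdown arrays were all lower, by 0.50 on average (log2 change -0.50, SE 0.0659, limma adjusted p = 0.00702). LUM, the small collagen-binding proteoglycan lumican, was 7.46 and 7.19 in scrambled cells and between 6.36 and 6.39 on the 4 knockdown arrays. Both hairpins thus gave nearly the same signal, with a change of -0.95 (SE 0.0910, limma adjusted p = 0.00316). LUM is also a fibroblast marker. In the mean of both hairpins 18.3% of all genes passed, and 26.2% with the intensity trend. Of 6 other fibroblast markers 0 passed in this comparison (1 at an unadjusted p under 0.05, and 1 with the intensity trend), with median signals of 5.96 to 6.11 under the scrambled hairpin, 6.08 to 6.09 under hairpin 44 and 6.11 to 6.18 under hairpin 45. COL1A1, a collagen chain of that list, passed under hairpin 45 at -0.48 (limma adjusted p = 0.0397). The part of these markers in the LUM result was not tested.

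THBS1, which encodes the matricellular protein thrombospondin-1, a ligand of CD47 and CD36, rose. Its signal was 10.86 and 10.71 under the scrambled hairpin, 11.88 on both hairpin 44 arrays and 11.60 and 11.61 under hairpin 45. No arrays overlapped between groups, and the change was 0.96 (SE 0.0709, limma adjusted p = 0.00191). SPARC, a collagen-binding matricellular protein, was 9.62 and 9.68 in scrambled cells, 9.35 and 9.40 under hairpin 44, and 9.63 and 9.66 under hairpin 45. Its difference of -0.28 under hairpin 44 did not pass (limma adjusted p = 0.0794, and 0.00538 with the intensity trend). DCN and THBS2 did not pass in any comparison, and DCN was below the 40th percentile of all probe sets in both tables.

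TNC, which encodes tenascin-C, a matrix protein of tissue remodelling that is bound by several integrins, responded in opposite directions to the hairpins. Its signal was 9.82 and 9.75 under the scrambled hairpin, 8.80 and 8.73 under hairpin 44, and 10.21 and 10.18 under hairpin 45. The 3 groups did not overlap, with scrambled cells in the middle. It fell under hairpin 44, by a log2 change of -1.02 (limma adjusted p = 0.00528), and rose under hairpin 45, by 0.41 (limma adjusted p = 0.0157), each with an SE of 0.0751. The call of -0.30 for the mean of both hairpins (adjusted p = 0.0271) averages these opposite changes, and it ended with the omission of any single array (adjusted p between 0.0680 and 0.0902) and with median centring.

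Each hairpin was also compared on its own with the same scrambled arrays. Hairpin 44 changed 10 members, 3 higher and 7 lower (7.65% of all genes passed, 4.81% higher and 2.84% lower). Hairpin 45 changed 14 members, 6 higher and 8 lower (20.1% of all genes passed, 13.0% higher and 7.11% lower). With the intensity trend these counts were 15 (17.6% of all genes) and 17 (27.9%). Without the trend, no hairpin 44 call was kept when either of its arrays was omitted. Such a fit leaves 1 array in the group, and very few of all genes passed in it. Lost calls are thus not particular to the members. Over all omissions of an array, the hairpin 44 change ran from -1.47 to -1.27 for ITGB6 and from -1.08 to -0.81 for LUM. It ran from 1.02 to 1.17 for THBS1 and from -1.05 to -0.98 for TNC. Under hairpin 45 the change ran from -2.67 to -2.46 for ITGB6, from -1.09 to -0.81 for LUM and from 0.75 to 0.90 for THBS1.

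The direct test of hairpin 45 against hairpin 44 called 2 members, ITGB6 and TNC (0.397% of all genes passed, 0.129% higher and 0.267% lower). ITGB6 lay lower under hairpin 45, by -1.19 on the log2 scale (limma adjusted p = 0.0208, SE 0.102), and TNC was higher by 1.43 (SE 0.0751, adjusted p = 0.00687). The remaining 40 members differed by between -0.34 and 0.35. Of these, the greatest difference was that of LAMB3 at 0.35 (adjusted p = 0.189). When moderation followed the intensity trend, 9 members passed (6.54% of all genes). Without the trend, neither call was kept when any 1 of the 6 arrays was omitted. Hardly any of all genes passed in those fits, so the loss is not particular to these members. The differences stayed between -1.27 and -1.12 for ITGB6 and between 1.39 and 1.47 for TNC.

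**Figure D2:**
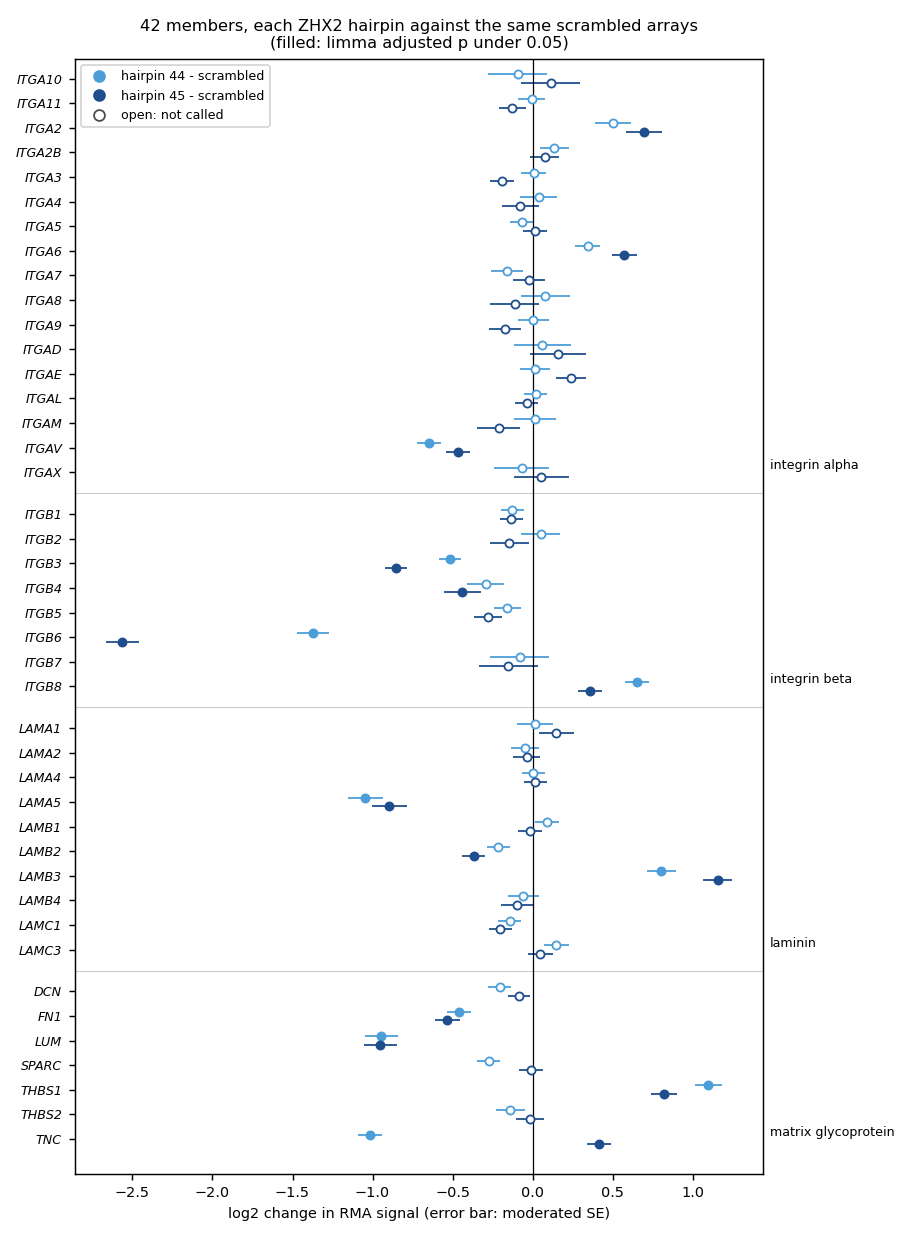
The log2 change of all 42 members (horizontal axis) under hairpin 44 and under hairpin 45 against the same 2 scrambled arrays, with the moderated SE as error bars and filled points for a limma adjusted p under 0.05; members are grouped by family. ITGB6 lies farthest to the left at -1.37 and -2.56, and TNC is the member whose filled points lie on opposite sides of 0.

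Knockdown of p65 was compared with control shRNA on 2 arrays against 2, in the separate p65 table, and shares no arrays with the ZHX2 comparisons. No level was compared between the tables, and the difference between the p65 and ZHX2 responses was not tested. Here 0 of the 42 members passed limma (0% of all genes), and 7 had an unadjusted p under 0.05. When moderation followed the intensity trend 4 members passed, with ITGB3, FN1 and ITGA3 higher and TNC lower (3.86% of all genes, 1.37% higher and 2.49% lower). The arrays of the 2 groups did not overlap for 22 of the 42 members, against 46.0% of all genes.

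ITGB3 showed the greatest difference. It was 8.73 and 8.18 with control shRNA and 10.54 and 10.22 with p65 shRNA. The groups did not overlap, and means of 8.46 ± 0.388 (SD, n = 2) and 10.38 ± 0.229 gave a log2 difference of 1.92, or 3.79-fold (SE 0.253). Its limma adjusted p was 0.0887, and 0.00301 with the intensity trend. FN1 was 11.04 and 11.19 with control shRNA and 11.95 and 11.94 with p65 shRNA, a difference of 0.83 (SE 0.170, limma adjusted p = 0.142, and 0.00334 with the trend). The p65 arrays lay closer together than the controls and above them. ITGA3, a laminin receptor chain of epithelia, was 9.70 and 9.42 against 10.22 and 10.02, a difference of 0.56 (SE 0.193, limma adjusted p = 0.296, and 0.0483 with the trend).

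TNC was lower with p65 shRNA. Its signal was 7.25 and 6.92 with control shRNA and 5.80 and 5.79 with p65 shRNA, a difference of -1.29 (SE 0.191, limma adjusted p = 0.0968, and 0.00592 with the trend). ITGA2, next in size, was 4.36 and 4.33 against 3.68 and 2.94. The p65 arrays were the more spread, and the difference of -1.04 did not pass either way (SE 0.279, limma adjusted p = 0.213, and 0.124 with the trend).

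The calls made with the intensity trend differed with the array omitted, and so did those over all genes, which were fewest without p65 replicate 1. No member kept its call in all 4 omissions. Over these omissions the difference ran from 1.65 to 2.20 for ITGB3 and from 0.75 to 0.90 for FN1. It ran from 0.42 to 0.70 for ITGA3 and from -1.45 to -1.12 for TNC.

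**Figure D3:**
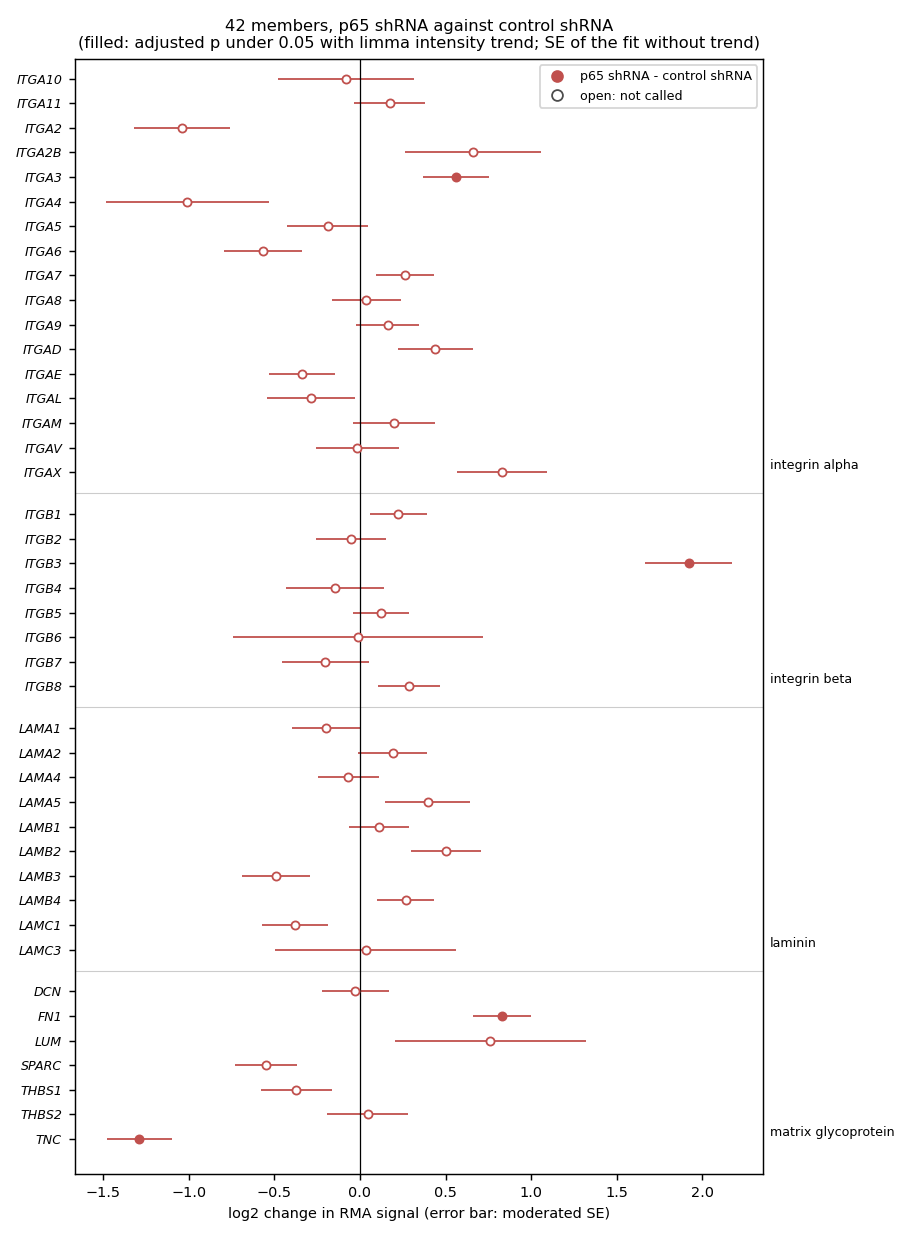
The log2 difference of all 42 members (horizontal axis) between p65 shRNA and control shRNA, with the moderated SE of the fit without a trend as error bars; filled points passed when moderation followed the intensity trend. ITGB3 at 1.92 and TNC at -1.29 lie farthest out, and ITGB6 and LUM have the widest error bars.

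For ITGB6 and LUM, which fell under the ZHX2 hairpins, the control arrays of the p65 table stood far apart. ITGB6 was 6.90 and 4.57 with control shRNA and 5.63 and 5.81 with p65 shRNA, so both p65 arrays lay between the controls. Its difference was -0.01 (SE 0.731, limma adjusted p = 0.996). LUM was 6.11 and 4.36 on the controls and 6.03 and 5.95 with p65 shRNA. The groups overlapped again, with control replicate 2 the low array in both genes. Over all members the 2 control arrays differed by a median of 0.292 and by up to 2.33, and the 2 p65 arrays by a median of 0.193 and by up to 1.37. The corresponding medians were 0.0912 for scrambled, 0.0595 for hairpin 44 and 0.0556 for hairpin 45.

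**Figure D4:**
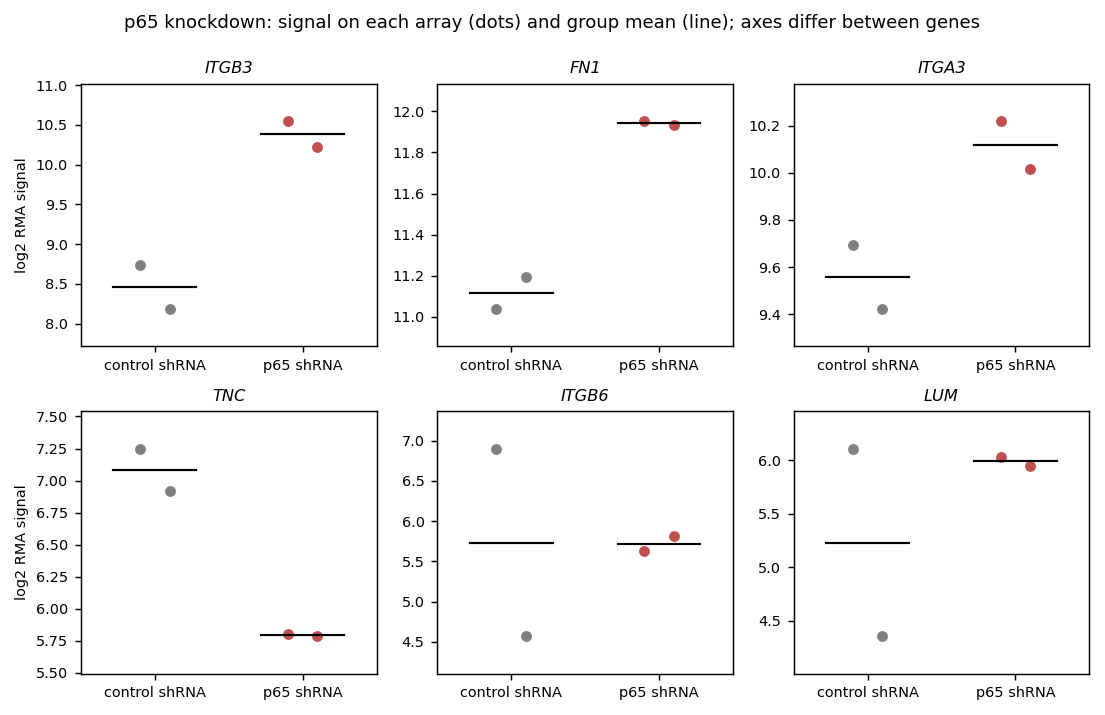
The log2 RMA signal (vertical axis, which differs between genes) of 6 members in control shRNA and p65 shRNA cells; each dot is an array and each line the mean of 2 arrays. ITGB3, FN1 and ITGA3 are higher and TNC lower on both p65 arrays, while for ITGB6 and LUM the control arrays lie on both sides of the p65 arrays.

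Medians over all probe sets were 6.15 to 6.22 on the ZHX2 arrays and 1.87 to 1.89 on the p65 arrays. Sizes of change were therefore not compared between the tables. Set side by side, the changes in the ZHX2 table (mean of both hairpins) and in the p65 table were -0.68 and 1.92 for ITGB3, -0.50 and 0.83 for FN1, and -0.56 and -0.02 for ITGAV. They were 0.60 and -1.04 for ITGA2, 0.46 and -0.57 for ITGA6, 0.98 and -0.49 for LAMB3, and 0.96 and -0.37 for THBS1. They were -0.97 and 0.40 for LAMA5, 0.51 and 0.29 for ITGB8, and -0.29 and 0.50 for LAMB2. For TNC they were -0.30 and -1.29, both lower, where -0.30 averages opposite changes under the hairpins. The other called members, ITGB6 and LUM, changed by -1.97 and -0.95 in the ZHX2 table, and their p65 and control arrays overlapped. Of these p65 differences those of ITGB3, FN1 and TNC passed with the intensity trend. LAMB3 held both motifs, but in promoter windows of different starts. For it the p65 table had 5.19 and 5.52 with control shRNA and 4.79 and 4.94 with p65 shRNA, which did not pass (limma adjusted p = 0.355, and 0.268 with the trend).

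Of 27 measured adaptors and focal adhesion proteins, which link integrins to actin and to signalling, 3 rose and 4 fell with both hairpins averaged, and the median was 0.13. These 7 are 25.9% of the list, where 18.3% of all genes passed (11.9% higher and 6.41% lower), and under hairpin 44 the shares were 7.41% and 7.65%. FERMT2, the kindlin that activates integrins, had a log2 rise of 0.40 (SE 0.0667, limma adjusted p = 0.0128), and the scaffold PXN, paxillin, rose by 0.39 (SE 0.0835, adjusted p = 0.0261). The tensins TNS1 and TNS3, which join integrin tails to actin, fell by 0.65 (SE 0.0865, limma adjusted p = 0.00707) and 0.56 (SE 0.0719, adjusted p = 0.00648). The rises were the less stable, since FERMT2 lost its call without scrambled replicate 2 or hairpin 45 replicate 2 (adjusted p up to 0.0611), and PXN without any array except scrambled replicate 1 (up to 0.106). With the intensity trend 10 rose and 4 fell, where 17.3% of all genes rose and 8.89% fell. Without scrambled replicate 2 or hairpin 45 replicate 2, 0 rose and 2 fell. For p65 shRNA 0 of the 27 passed, with or without the trend (2 and 3 at an unadjusted p under 0.05).

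Of 27 other measured glycoproteins and proteoglycans of the matrix, 9 fell and 1 rose, with a median of -0.15. That is 37.0% of the list, beside 18.3% of all genes (6.41% lower). SPP1, osteopontin, a ligand of integrins containing ITGAV, was 12.08 and 12.07 under the scrambled hairpin, 11.29 and 11.33 under hairpin 44 and 10.36 and 10.44 under hairpin 45. It fell by 1.22 over both hairpins (SE 0.0643, limma adjusted p = 0.000940), and hairpin 45 lay below hairpin 44 by a difference of -0.90 (adjusted p = 0.0207). The difference between the hairpins no longer passed once any single array was omitted, when hardly any of all genes passed. It then ran from -0.945 to -0.864. THBS3, a thrombospondin, fell by 1.05 (SE 0.0603, limma adjusted p = 0.00109). ASPN, the proteoglycan asporin, was higher by 0.48 (SE 0.118, adjusted p = 0.0404), with signals of 3.62 to 4.33 that are below the 40th percentile, and kept its call in 1 of 6 omissions of an array. In the p65 table SPP1 was 10.62 and 9.99 with control shRNA and 11.35 and 11.37 with p65 shRNA, a difference of 1.05 (limma adjusted p = 0.179, and 0.0187 with the trend). It was the only 1 of the 27 to pass there with the trend, in 2 of 4 omissions.

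The TGF-beta list covered ligands, the proteins that hold them latent, receptors and also the protease BMP1. Of its 14 genes 5 fell and 1 rose, with a median of -0.09, so that 42.9% passed, beside 18.3% of all genes (6.41% lower). BMP1, a protease that matures matrix proteins, fell by 0.79 (SE 0.0676, limma adjusted p = 0.00246) and LTBP3, which tethers latent TGF-beta to the matrix, by 0.63 (SE 0.0728, adjusted p = 0.00489). The ligand gene TGFB2 rose by 0.35 (SE 0.0653, limma adjusted p = 0.0180), a call kept in 2 of 6 omissions, and the number that fell was 3 or 4 over the omissions. In the p65 table BMP1 differed by 0.98 (limma adjusted p = 0.165, and 0.0445 with the trend) and LTBP3 by 0.89 (0.138, and 0.0434 with the trend), in 0 and 1 of 4 omissions.

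Of 13 measured non-integrin matrix receptors 2 rose and 0 fell, with 3 at an unadjusted p under 0.05 and a median of -0.03. The 15.4% that passed are fewer than the 18.3% of all genes. CD44, the hyaluronan receptor, rose by 0.84 (SE 0.0608, limma adjusted p = 0.00186), and SDC4, a syndecan of focal adhesions, by 0.29 (SE 0.0636, adjusted p = 0.0281). SDC4 kept its call in 1 of 6 omissions. With p65 shRNA the log2 differences were -1.14 for CD44 (limma adjusted p = 0.0948, and 0.00929 with the trend) and 0.82 for SDC4 (0.246, and 0.0434 with the trend), each passing with the trend in 2 of 4 omissions. Among renal markers 4 of 9 fell and 1 rose over both ZHX2 hairpins, beside 18.3% of all genes (6.41% lower). CDH6 changed by -1.92, CDH16 by -1.11, PAX8 by -0.38, PAX2 by -0.36 and KRT18 by 0.62. The part of these markers in the integrin and laminin results was not tested.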

How the data were processed

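The authors deposited 1 table of log2 RMA signals per platform, 6 arrays in the ZHX2 table and 4 in the p65 table, each with 53617 probe sets. RMA is named in the submitters' processing notes, while the sources used here name neither the software that ran it nor a genome build. Probe sets were named by joining both platform annotations and updating symbols through RefSeq GRCh38.p14, which gave 24480 probe sets with 1 gene. For genes with several probe sets, the one with the highest mean signal was used. Groups and replicate numbers came from sample titles. The tables were fitted separately over all genes with limma 3.58.1 in R 4.3.3, with group means, empirical Bayes moderation and Benjamini-Hochberg adjustment, at an adjusted p under 0.05, on 3 and 2 residual degrees of freedom. The fit was tested on simulated data. Members with a call, the 3 greatest p65 differences, and the 2 genes with the smallest p per direction of each other list were named. Members and lists were chosen with earlier results of these data known. The number of arrays limits the precision.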

Additional observations from a re-analysis of the deposited data

Results flagged for a closer look

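ITGB6 and TNC responded differently to the 2 ZHX2 hairpins by the direct test of hairpin 45 against hairpin 44. ITGB6 was lower with hairpin 45 by a log2 difference of -1.19 (limma adjusted p = 0.0208), having fallen with both hairpins. TNC was higher with hairpin 45 by 1.43 (limma adjusted p = 0.00687), having fallen with hairpin 44 and risen with hairpin 45. ZHX2 itself differed between the hairpins by -0.39, which did not pass (limma adjusted p = 0.152). The groups of 2 arrays are too small to test single arrays as outliers.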

How the results depend on the processing

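The fits were repeated with quantile normalization, median centring, moderation along the intensity trend or made robust, array weights, a replicate block, dim probe sets removed, a mean over probe sets of a gene, for single contrasts only their 2 groups, and 1 array omitted at a time, where a lone array is assumed to vary like the other groups. For the mean of both hairpins 11 of 13 called members kept their call in all 14 alternatives, and LAMB2 and TNC did not. For hairpin 44, 0 of 10 kept it in all 15, and for hairpin 45, 6 of 14. The direction was the same throughout. Calls lost with an array left out are not particular to the members. Fewer of all genes passed then too, for hairpin 44, for hairpin 45 and for hairpin 45 against hairpin 44. That last comparison called 9 members with the intensity trend, 1 with the replicate block and 0 in the fit of its 2 groups, against 2 as reported. For p65 the trend called 4 members, and between 0 and 7 with an array left out, an alternative chosen after seeing the data. The cause of these changes was not tested. Over all genes the share of calls that were higher, for the mean of both hairpins, was 64.9%, 53.2% after quantile normalization and 73.0% after median centring. Arrays with the same replicate number did not deviate together over all genes (r from -0.03 to 0.05). With 2 arrays per group this cannot exclude a pairing that affects only some genes. The block left the members called at 5 and 8 for the mean of both hairpins.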
